A study of Mus musculus with 10 samples.

Results

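Lymphatic and blood endothelial cells (LECs and BECs) were compared within the ear skin of mice that expressed an activated PI3K catalytic subunit in endothelium. The cells came from 7 plates of 5 mutant mice, with 1 plate per mouse and 2 plates, added up, for mutants 3 and 5. A well entered when it held at least 50000 reads outside the spike-ins, at least 200 genes and at most 10% mitochondrial reads, which 2524 of 2688 mutant wells did. A cell was called a LEC when *Prox1*, *Flt4* and *Mmrn1* together reached at least 300 reads per 1000000 reads of the sum or cell, or CPM, and exceeded the sum of *Flt1*, *Emcn* and *Podxl*, and a BEC when the reverse held. This gave 1283 LECs and 1174 BECs, 2457 of the 3248 cells that passed the filters in the whole series, while 67 mutant cells met neither rule. Per mouse, LECs numbered 184, 187, 363, 182 and 367 and BECs 183, 184, 330, 174 and 303. Reads were added up over the LECs and over the BECs of each mouse, since cells of a mouse are not replicates. These 10 sums were the samples of every gene test within mutant mice. The comparison with control mice used 14 such sums, and the test of cycling cells used 1 share per mouse and cell type.

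The mutant mice carried Pik3caH1047R;Cdh5-CreERT2, were Cre+ and received 4-OHT (10 mg/ml in acetone) on the ear at 3 wk of age. They were analysed at 5 wk. The *Cdh5* promoter drives the recombinase in LECs and BECs alike, and the H1047R transgene, transcribed from the Rosa26 locus, was not analysed here, so which cells had recombined is not known from these counts. Control 1 was an untreated C57BL/6J mouse, and control 2 was a Cre- mouse of the mutant strain that received 4-OHT at 3 wk of age. Both controls were analysed at 5 wk and were used only for the shares of cycling cells and in the last comparison. Another control mouse, also Cre- and given 4-OHT, was not analysed here. Endothelial cells had been sorted by antibodies to Podoplanin and CD31, with CD45+, CD11b+ and Ter119+ cells and dead cells discarded. The sample labels name all cells as sorted LECs, whereas the paper states that both LECs and BECs were sorted. On these plates 1174 cells met the BEC rule. The 10 sums held 38402388–194353210 reads. Median reads per cell ran from 274769 to 488024 in LECs and from 187907 to 329994 in BECs and were higher in LECs in all mutant mice except mutant 4. Of the LECs, 99.1% lay in columns 1–12 of their plates, and 98.0% of the BECs lay in columns 13–24, so cell type and side of the plate cannot be told apart. In bulk sums, fewer cells of a kind and less RNA per cell cannot be told apart either.

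Endothelium of lymphatic and of blood vessels shares part of its junctional and VEGF receptor repertoire, but its work differs. Lymphatic capillaries take up fluid, hyaluronan and migrating leukocytes, and their identity depends on the transcription factor *Prox1* and on VEGF-C signaling through VEGFR3, the product of *Flt4*. Blood endothelium carries pressure and clotting factors, admits leukocytes through selectins and integrin ligands, and differs between arteries, capillaries and veins. PI3K acts downstream of VEGF and Tie receptors in both.

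The genes of the gate describe the grouping and were left out of every test. Averaged over the 5 mice, the LEC sums held 431 ± 68.5 CPM of *Prox1*, 1770.5 ± 203 of *Flt4* and 2217 ± 482 of *Mmrn1* (SD, n = 5), and the BEC sums 14.1 ± 7.19, 73.9 ± 14.2 and 41.0 ± 33.9. *Flt1*, which encodes VEGFR1, stood at 4.77 ± 2.61 CPM in LECs and 638 ± 88.4 in BECs. The sialomucin genes of the gate separated the cells less. *Emcn* was at 331 ± 20.9 CPM in LECs and 1180.1 ± 131 in BECs, and *Podxl* at 236 ± 36.1 and 271 ± 48.8. Hence 813 LECs (63.4%) held at least 300 CPM of the blood sum as well, against 101 BECs (8.60%) that held as much of the lymphatic sum, and in 53 LECs and 43 BECs the winning sum was under 2 times the other. The lowest winning sums were 304 CPM in LECs and 303 CPM in BECs, and the highest sum of an ungated cell was 297 CPM.

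Markers of other skin cells were present at low levels in both groups. Keratinocyte markers, led by *Krt14* and *Krt5* and with all 6 above 1 CPM on average in both groups, summed to 55.9–307 CPM in LECs and 10.3–574 in BECs. Fibroblast markers summed to 26.9–127 and 17.6–70.2 CPM with 5 of 6 above 1 CPM in each, and immune markers to 25.9–59.4 and 9.84–38.3 CPM with 4 of 6 above 1 CPM in each. The immune sum was higher in LECs in 5 of 5 mice, led by *Cd68* in LECs and by *Cd74* in BECs. Of 5 immune genes tested only *Cd68* was called. The part of the immune sum in other results was not tested. Mural cell markers summed to 42.7–72.5 CPM in LECs, with 5 of 6 above 1 CPM, and to 35.1–209 CPM in BECs, with all 6. They were higher in BECs in 4 of 5 mice, and *Rgs5* and *Myh11*, genes of pericytes and smooth muscle, were called higher there (log2 fold changes -4.31 and -3.83), the second not when cells picked by such markers, itself included, were left out. Schwann cell markers summed to at most 18.2 CPM and erythroid markers to 6.75–24.01 CPM. *Cd68*, a macrophage gene, was higher in LECs (20.8 ± 9.12 against 1.200 ± 0.424 CPM, adjusted p = 0.00014) while *Ptprc*, the gene of CD45, fell below the expression filter. Of the keratinocyte genes 2 of 6 were called higher in BECs and of the fibroblast genes *Dcn* was called higher in LECs (log2 fold change 2.42), calls that were lost when cells picked by these same markers were left out. At least 2 such markers at 100 CPM or more were found in 98 LECs (7.64%) and 109 BECs (9.28%).

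LECs and BECs of the same mutant mice differed in genes of vessel identity, signaling, matrix and metabolism. Of 17793 genes tested with edgeR and the mouse as a block, 2218 were higher in LECs (12.5%) and 2221 were higher in BECs (12.5%) at an adjusted p under 0.05. These percentages are the background for the counts below. At a difference of at least 2-fold the numbers were 1290 (7.25%) and 1558 (8.76%). The log2 fold change is written as LECs minus BECs, with its SE, and its median over all genes was 0.01. Of the 4439 called genes, 4331 moved in 1 direction in all 5 mice, and 2358 (53.1%) were called in the same direction under each of 17 alternative settings. LEC and BEC values of the 5 mice did not overlap for 3527 of the genes tested (19.8%), the background for each gene said not to overlap.

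**Figure D1:**
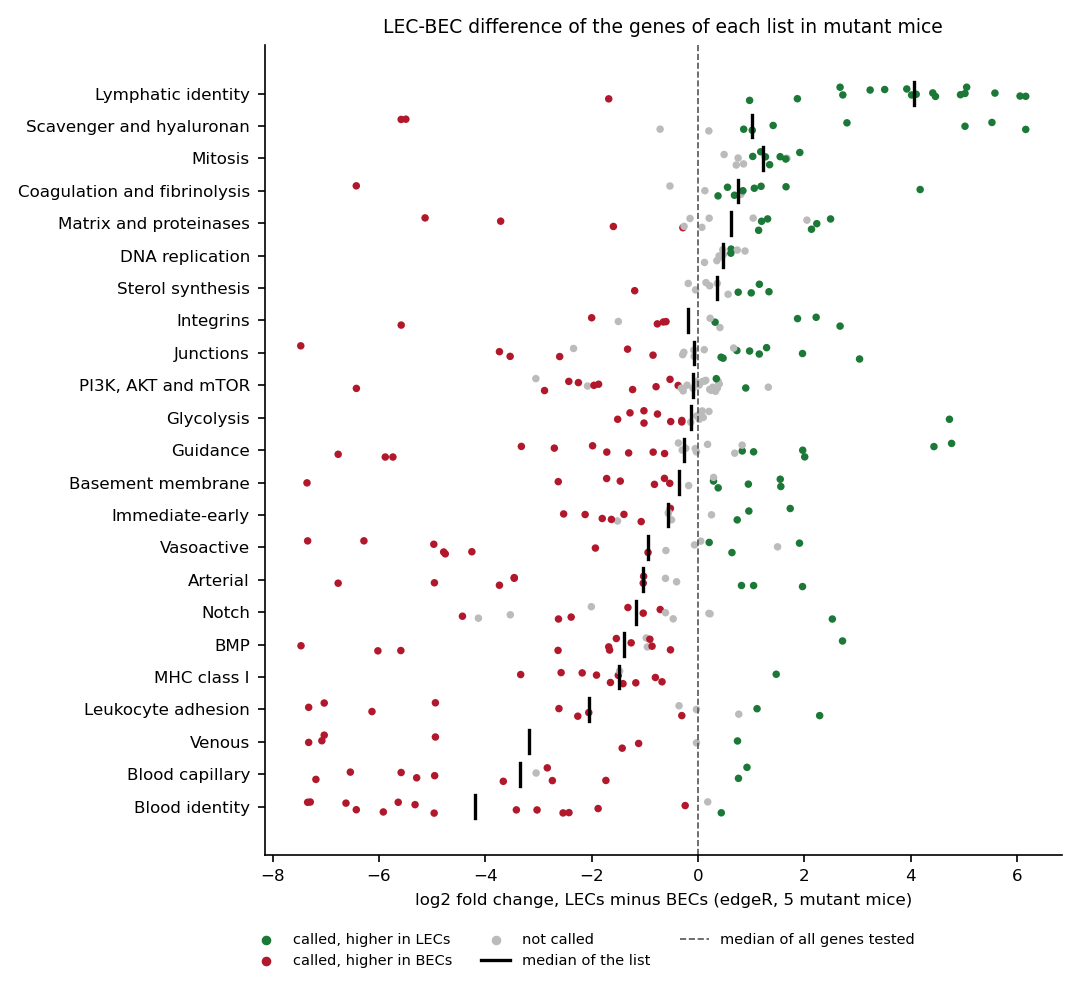
Each point is a gene of a list, at its log2 fold change (LECs minus BECs, x axis) over the 5 mutant mice. Green points were called higher in LECs, red points higher in BECs, grey points were not called, black bars are list medians and the dashed line is the median of all genes tested (0.01). Medians ran from -4.19 for blood identity to 4.06 for lymphatic identity.

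Of 18 genes of lymphatic endothelial identity that the gate did not use, 17 were higher in LECs, with a median log2 fold change of 4.06. *Lyve1*, the hyaluronan receptor of lymphatic capillaries (chromosome 7, 110850607–110863239, GRCm38), stood at 1179, 2046, 2124, 1953 and 2441 CPM in the LECs of mutants 1–5. BEC levels were 106, 39.1, 46.2, 27.3 and 136 CPM. The groups did not overlap (log2 fold change 5.02 ± 0.46, adjusted p = 0.00029), although mutant 1 had the lowest level in LECs. *Reln*, a secreted glycoprotein of collecting lymphatics (chromosome 5, 21884454–22344702), stood at 560.0, 546, 529.8, 479 and 281 CPM in the LECs of mutants 1–5. In the paired BECs it reached 29.2, 12.3, 8.75, 1.58 and 11.7 CPM, with every LEC value far above the BEC values (log2 fold change 5.58 ± 0.61, adjusted p = 0.00067). *Pdpn* encodes Podoplanin, on which the cells had been sorted, and its difference (668 ± 89.99 against 27.5 ± 23.4 CPM) therefore describes the sort.

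The chemokine *Ccl21a*, which guides dendritic cells into lymphatic vessels, was at 764 ± 182 against 104 ± 99.4 CPM (adjusted p = 0.0019). It has near-identical copies in the mouse genome, so reads may be split among them. Transcription factors of the lymphatic and valve programs were among the genes with non-overlapping groups. *Foxc2*, needed for lymphatic valves (chromosome 8, 121116171–121118895), stood at 216, 151, 169, 137 and 133 CPM in the LECs of mutants 1–5. Their BECs showed 26.3, 7.98, 9.14, 3.88 and 11.7 CPM, and its groups were apart in every mouse (log2 fold change 4.02 ± 0.32, adjusted p = 0.00016). *Tbx1* (162 ± 46.9 against 12.1 ± 15.2 CPM) and *Maf* (141 ± 20.1 against 9.35 ± 5.59 CPM) followed the same direction, as did *Nfatc1* (358 ± 36.6 against 134 ± 24.2 CPM).

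Other transcription factors of lymphatic development did not separate the cells that way. *Gata2* (188 ± 20.5 against 185 ± 35.9 CPM, adjusted p = 0.85), *Hoxd8* (adjusted p = 0.76) and *Hhex* (adjusted p = 0.083) were not called. Over 24 fate transcription factors, 7 were higher in LECs and 6 in BECs. Among those of blood endothelium, *Sox17* and *Mecom* were strongly higher in BECs (log2 fold changes -5.64 and -7.22), *Tal1* was not called (adjusted p = 0.67), and *Lmo2*, a partner of *Tal1*, was higher in LECs (233 ± 56.1 against 58.2 ± 17.01 CPM, adjusted p = 4.6e-05). Of the SoxF factors, *Sox7* was higher in BECs (log2 fold change -1.10) and *Sox18* was not called (696 ± 84.6 against 829 ± 161 CPM, adjusted p = 0.11).

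**Figure D2:**
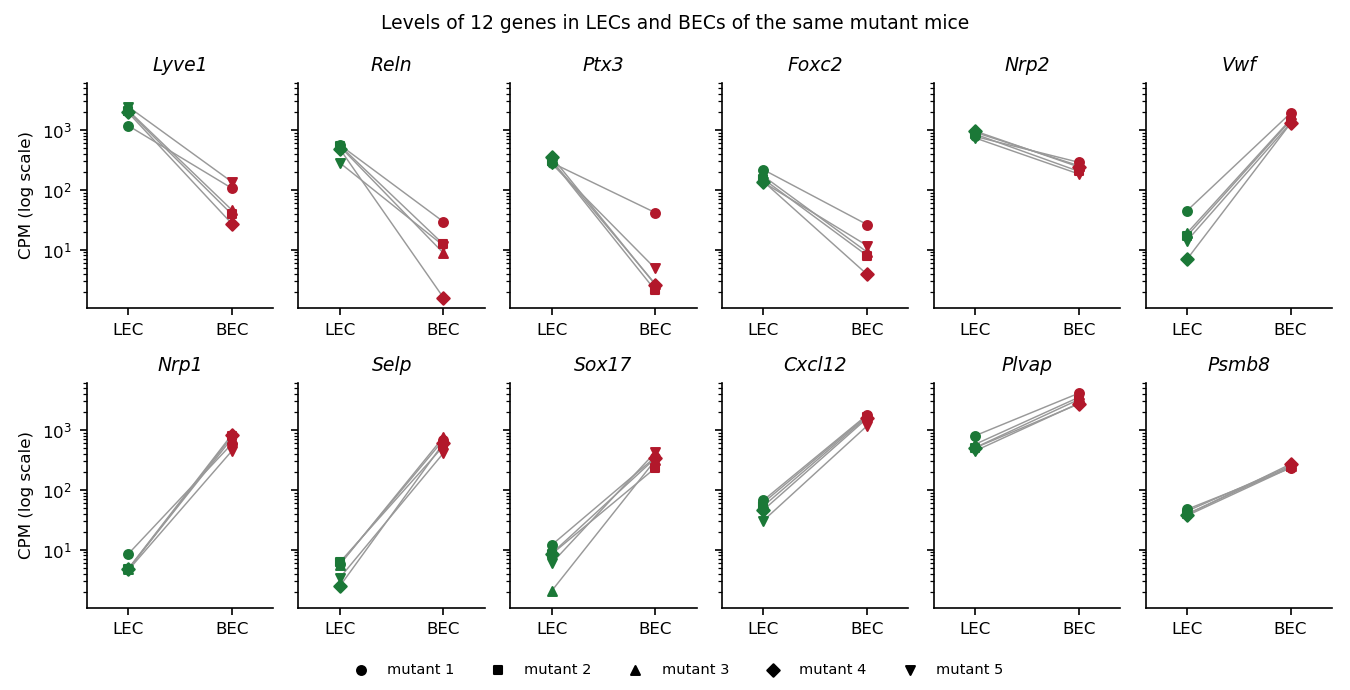
CPM (log scale) of 12 genes in the LEC sums (green) and BEC sums (red) of the 5 mutant mice, with a line joining the sums of a mouse and a symbol for each mouse. The values of LECs and BECs did not overlap for any of the 12, which were picked for display, and for 19.8% of all genes tested. Mutant 1 had 41.5 CPM of *Ptx3* in BECs where the others had at most 4.86.

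The 12 called genes with the largest excess in LECs, outside the gate, had log2 fold changes from 5.94 to 7.09 and adjusted p of at most 0.0017. The rule took only genes whose average log2 CPM reached 4 and whose LEC and BEC values did not overlap. *Apba2*, which encodes a neuronal adaptor of amyloid precursor protein (chromosome 7, 64501706–64753878), led them. It stood at 91.4, 107, 107, 89.03 and 68.7 CPM in the LECs of mutants 1–5. The BECs of these mice held 1.39, 0.524, 0.883, 0.266 and 0.614 CPM (log2 fold change 7.09 ± 0.38, adjusted p = 3.5e-05). *Nrcam* encodes a neuronal cell adhesion molecule (55.5 ± 16.04 against 0.979 ± 0.963 CPM). *Cyfip2* encodes a member of the WAVE actin complex (45.8 ± 15.3 against 0.801 ± 0.9803 CPM) and *Clgn* a testis-enriched chaperone (35.7 ± 16.7 against 0.423 ± 0.317 CPM). The solute carriers *Slc45a3* (726 ± 111 against 16.99 ± 16.2 CPM) and *Slc39a4*, a zinc importer (162 ± 41.5 against 3.62 ± 3.86 CPM), were also there. So were the transcription factor gene *Osr1* (33.4 ± 15.3 against 0.436 ± 0.483 CPM), the lipid-binding *Tnfaip8l3* (56.8 ± 18.2 against 0.983 ± 0.622 CPM), the glutathione-cleaving enzyme *Ggt5* (65.2 ± 12.9 against 1.21 ± 1.01 CPM) and *Ptprv*, annotated as a processed transcript (84.5 ± 35.2 against 2.28 ± 2.74 CPM). The soluble pattern recognition molecule *Ptx3* (chromosome 3, 66219910–66225805) stood at 283, 304, 310.0, 355 and 274 CPM in the LECs of mutants 1–5. BEC levels were 41.5, 2.097, 2.67, 2.61 and 4.86 CPM, with all LEC sums within 274–355 CPM (log2 fold change 6.06 ± 0.77, adjusted p = 0.0013). In BECs, mutant 1 had the highest level of 9 of these 12 genes, and its BECs had a median lymphatic gate sum of 102 CPM against 22.1–50.9 in the other mice.

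Of 16 blood endothelial identity genes, 14 were higher in BECs and 1 in LECs, with a median of -4.19. *Vwf*, the von Willebrand factor of platelet adhesion (chromosome 6, 125546774–125686679), stood at 44.6, 16.9, 18.9, 6.904 and 14.04 CPM in the LECs of mutants 1–5. In the paired BECs it reached 1900.2, 1431, 1491, 1282 and 1299.7 CPM, with mutant 1 the highest in both cell types (log2 fold change -6.43 ± 0.32, adjusted p = 3e-05). *Plvap*, the diaphragm protein of fenestrae and caveolae (chromosome 8, 71497765–71511752), was high in BECs but also present in LECs. It stood at 799, 506, 574, 501 and 445 CPM in the LECs of mutants 1–5. Their BECs showed 4086, 3204, 3493, 2711 and 2773 CPM (log2 fold change -2.54 ± 0.07, adjusted p = 5.5e-06). *Cd34* (447 ± 104 against 1618 ± 190.2 CPM), *Ly6a* (37.2 ± 13.6 against 1099.7 ± 79.4 CPM) and *Sparcl1* (27.00 ± 10.8 against 2519 ± 214 CPM) had the same direction. *Kdr*, which encodes VEGFR2, was higher in LECs, at 661 ± 93.7 against 494 ± 108 CPM. Its groups overlapped (log2 fold change 0.44 ± 0.09, adjusted p = 0.014), and the call was lost without mutant 3 (adjusted p = 0.062), without the mouse as a block (0.09) and with cells thinned to equal depth (0.069).

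Pan-endothelial genes were present in both cell types but at unequal levels, 10 of 14 being higher in BECs and 2 in LECs. *Pecam1*, the gene of CD31, which the sort used (1537 ± 129 against 2742 ± 221 CPM), and *Cd93* (34.7 ± 12.1 against 519 ± 51.3 CPM, adjusted p = 2.5e-05) were higher in BECs. The claudin *Cldn5* and *Ramp2*, the adrenomedullin co-receptor (1237 ± 80.7 against 1073 ± 117 CPM, adjusted p = 0.029), were the 2 that were higher in LECs, and the call of *Ramp2* was lost without each of mutants 1–4.

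Genes that distinguish segments of the blood vascular tree were mostly higher in BECs, 7 of 12 arterial, 6 of 8 venous and 9 of 12 capillary genes. Higher in LECs were 3 arterial, 1 venous and 2 capillary genes. The venous genes *Ackr1*, *Selp* and *Sele* had log2 fold changes of -7.08, -7.03 and -7.32. *Fabp4* (47.8 ± 20.3 against 1757 ± 190.5 CPM) and *Cd36* (26.1 ± 9.19 against 1211 ± 308 CPM), fatty acid handling genes of capillaries, and the arterial connexin *Gja5* (log2 fold change -3.74) did the same. Opposite to these were the connexin *Gja4* (496 ± 200.2 against 124 ± 47.8 CPM, adjusted p = 0.0044), *Efnb2* (74.3 ± 19.99 against 35.1 ± 3.83 CPM, adjusted p = 0.0043) and *Fbln5* (1168 ± 87.1 against 679 ± 178 CPM, adjusted p = 0.0054), counted here as arterial but higher in LECs, where they are also known from valves and collectors in the case of *Gja4* and *Efnb2*. *Ephb4*, the receptor of ephrin-B2 and a venous gene, was not called (444 ± 58.9 against 454 ± 64.5 CPM, adjusted p = 0.83).

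By the same rule, the 12 genes with the largest excess in BECs had log2 fold changes from -7.34 to -7.60, so LEC levels were near zero, at most 15.1 CPM in any mouse, while BEC levels were at least 20.2 CPM. *Aplnr*, the apelin receptor (chromosome 2, 85136225–85139923), stood at 15.1, 2.34, 7.83, 3.35 and 3.36 CPM in the LECs of mutants 1–5. The BECs of these mice held 972, 882, 1006, 939 and 483 CPM (log2 fold change -7.34 ± 0.44, adjusted p = 5.2e-05). Its ligand gene *Apln* was at 15.8 ± 15.4 against 942 ± 260.1 CPM, so both members of the pair were higher in BECs. *Jam2*, a junctional adhesion molecule of venules (chromosome 16, 84774123–84825928), stood at 11.99, 1.24, 4.55, 4.21 and 3.11 CPM in the LECs of mutants 1–5. BEC levels were 696, 656, 768, 889 and 585 CPM (log2 fold change -7.47 ± 0.48, adjusted p = 7e-05). *Cadm3* encodes a nectin-like adhesion molecule (1.24 ± 0.794 against 224 ± 35.02 CPM) and *Tacr1* the substance P receptor (0.942 ± 0.843 against 141 ± 41.8 CPM). *Enpp6* encodes a choline phosphodiesterase (1.54 ± 1.11 against 247 ± 35.2 CPM) and *Masp1* a protease of the lectin complement pathway (0.532 ± 0.334 against 85.8 ± 12.8 CPM). *C1qtnf9* encodes an adiponectin paralog (2.11 ± 1.29 against 321 ± 82.99 CPM) and *Col15a1* a basement membrane collagen (0.8604 ± 0.9404 against 111 ± 48.9 CPM). The other members were *Slc26a10*, *Dusp26*, *Fam167b* and *Ccdc85a*, at 46.4–117 CPM in BECs and 0.23–0.66 in LECs on average.

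VEGF receptors and ligands were split between the cell types. *Nrp1*, the neuropilin that binds VEGF-A (chromosome 8, 128358604–128503363), stood at 8.42, 4.67, 4.73, 4.76 and 4.51 CPM in the LECs of mutants 1–5. In the paired BECs it reached 580.0, 779, 711, 824 and 442 CPM, with low LEC values in all mice and no overlap (log2 fold change -6.95 ± 0.26, adjusted p = 1.4e-05). *Nrp2*, the neuropilin that binds VEGF-C, was the reverse. It stood at 775, 848, 909.5, 956 and 732 CPM in the LECs of mutants 1–5. Their BECs showed 287, 203, 252, 240.3 and 184 CPM, and LEC values were higher in 5 of 5 mice (log2 fold change 1.87 ± 0.11, adjusted p = 4.4e-05). Among ligands, *Vegfc* was higher in BECs (1.07 ± 0.707 against 43.7 ± 4.51 CPM, adjusted p = 7.7e-05) and *Pgf* in LECs (164 ± 46.6 against 18.7 ± 10.1 CPM, adjusted p = 0.0016), while *Vegfa* (2.35 ± 0.951 against 2.46 ± 1.87 CPM) and *Vegfd* (1.25 ± 0.6496 against 5.04 ± 4.21 CPM) were low in both and not called. In the Tie pathway, the receptor gene *Tek* and *Ptprb*, the phosphatase that restrains it, were higher in BECs (log2 fold changes -1.06 and -3.03), and the receptor *Tie1* (1249 ± 153 against 1345 ± 211 CPM) and the ligand *Angpt2* (124 ± 26.2 against 102 ± 24.1 CPM) were not called. *Svep1* and *Angpt4* fell below the expression filter.

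Of 31 genes of the PI3K, AKT and mTOR pathway, 10 were higher in BECs, 2 in LECs and 19 not called, with a median log2 fold change of -0.09. Under every alternative setting 7 of the 10 BEC calls and 0 of the 2 LEC calls were kept. *Pik3ca*, the endogenous gene of the p110α catalytic subunit (chromosome 3, 32397671–32468486), stood at 29.03, 22.6, 41.2, 24.7 and 22.4 CPM in the LECs of mutants 1–5. The BECs of these mice held 27.2, 18.7, 29.5, 21.6 and 17.7 CPM, and the groups overlapped (log2 fold change 0.28 ± 0.14, adjusted p = 0.22). Differences lay in regulatory and alternative members. *Pik3ip1*, an inhibitor of the catalytic subunit (21.9 ± 8.396 against 113 ± 17.4 CPM, adjusted p = 0.00035), and *Pik3r3*, a regulatory subunit (30.5 ± 5.02 against 112 ± 22.98 CPM, adjusted p = 0.00028), were higher in BECs. So was *Pik3c2b*, a class II enzyme (0.631 ± 0.433 against 47.04 ± 8.38 CPM, adjusted p = 0.00014). *Mtor*, *Rptor*, *Rictor*, *Tsc1*, *Tsc2* and *Rps6kb1* were not called, with adjusted p from 0.074 to 0.98. FOXO factors are excluded from the nucleus by AKT. None of 3 FOXO factor genes was called, and of 8 FOXO-responsive genes 2 were higher in LECs and 3 in BECs. *Foxo1* itself was at 105 ± 20.3 against 133 ± 17.4 CPM (adjusted p = 0.103), *Sesn1* was higher in LECs (log2 fold change 1.56) and *Cited2* in BECs (-2.74). The *Cdh5* gene, whose promoter drives the recombinase, was at 222 ± 44.9 against 550.2 ± 62.8 CPM (log2 fold change -1.33 ± 0.07, adjusted p = 4.4e-05), higher in the BECs of all 5 mice, and its part in the other differences was not tested.

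Notch and BMP genes leaned to BECs. Of 14 Notch pathway genes, 6 were higher in BECs and 1 in LECs, and 4 of these 7 remained called without the mouse as a block. They included the ligands *Dll4* (86.3 ± 22.9 against 176 ± 40.3 CPM, adjusted p = 0.0007) and *Jag2* (log2 fold change -2.39), the receptor *Notch4* (-4.43) and the target *Nrarp* (-2.63), whereas the receptor *Notch1* was not called (619.6 ± 164 against 517 ± 66.5 CPM, adjusted p = 0.15). Of 14 BMP genes, 11 were higher in BECs, among them the receptors *Eng* (log2 fold change -1.68) and *Acvrl1* (-0.87) and the target genes *Id1* (-1.54), *Id3* (-1.66) and *Smad6* (-7.47). *Gdf10*, a ligand of the family, was the 1 gene higher in LECs (101 ± 78.4 against 13.2 ± 6.94 CPM, adjusted p = 0.00084). Guidance genes went both ways, 6 of 24 higher in LECs and 10 in BECs. Class 3 semaphorins showed it within a family, since *Sema3a* (259 ± 94.97 against 11.1 ± 7.603 CPM) and *Sema3d* (299 ± 19.7 against 15.3 ± 8.59 CPM) were higher in LECs and *Sema3g* (0.535 ± 0.836 against 28.5 ± 12.1 CPM) in BECs.

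Of 13 leukocyte adhesion and galectin genes, 8 were higher in BECs, 2 in LECs and 3 not called. *Selp*, or P-selectin (chromosome 1, 164115264–164150026), stood at 5.801, 6.19, 5.65, 2.46 and 3.397 CPM in the LECs of mutants 1–5. BEC levels were 681, 537, 759.8, 598 and 410.1 CPM, with no overlap (log2 fold change -7.03 ± 0.24, adjusted p = 1.2e-05). *Icam1*, the ligand of leukocyte β2 integrins, was at 101 ± 37.4 against 458 ± 56.7 CPM, and *Vcam1* had a log2 fold change of -4.94. *L1cam* (142 ± 34.5 against 29.5 ± 9.898 CPM) and *Lgals1* (207 ± 61.1 against 99.03 ± 43.9 CPM) were higher in LECs. Of 14 chemokines and decoy receptors tested, 5 were higher in each cell type. *Cxcl12* (chromosome 6, 117168535–117181367) stood at 66.8, 53.5, 60.9, 45.9 and 30.6 CPM in the LECs of mutants 1–5. In the paired BECs it reached 1768, 1631, 1704, 1554 and 1164 CPM (log2 fold change -4.96 ± 0.10, adjusted p = 5.1e-06), with the smallest BEC value far above the largest LEC value. *Cx3cl1* was higher in BECs as well (log2 fold change -4.48), while *Ccl2*, the monocyte attractant (78.4 ± 43.8 against 16.2 ± 11.6 CPM, adjusted p = 0.0036), and the decoy receptors *Ackr2* (576 ± 213 against 24.3 ± 19.8 CPM) and *Ackr3* (547 ± 147 against 170.2 ± 11.05 CPM) were higher in LECs.

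Of the class I molecule genes 3 of 3, and of the genes of antigen processing 5 of 6, were higher in BECs. With 3 checkpoint ligand genes, 2 of them higher in BECs and 1 in LECs, the list of 12 had a median log2 fold change of -1.49. *Psmb8*, an immunoproteasome subunit (chromosome 17, 34197721–34201454), stood at 47.1, 39.5, 43.9, 38.4 and 36.9 CPM in the LECs of mutants 1–5. Their BECs showed 230.0, 241, 251, 268 and 234 CPM. All 5 mice lay close together in each cell type, and the groups did not overlap (log2 fold change -2.58 ± 0.10, adjusted p = 1.6e-05). The peptide transporter genes *Tap1* (39.4 ± 8.999 against 147 ± 24.2 CPM) and *Tap2* (89.7 ± 8.89 against 255 ± 33.8 CPM), the loader *Tapbp* (280.0 ± 37.01 against 744 ± 86.2 CPM), *B2m* (467 ± 90.6 against 1044 ± 129 CPM) and *H2-K1* (489 ± 67.95 against 1534 ± 237 CPM) followed. *H2-K1* and *H2-D1* belong to a family of closely similar genes, between which reads can be split. The checkpoint ligand gene higher in LECs was *Cd276*, at 135 ± 40.6 against 46.97 ± 6.08 CPM (adjusted p = 0.0013).

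Barrier and matrix genes divided by family member. Of 21 junction genes, 8 were higher in LECs and 6 in BECs. The claudin *Cldn5* (2234 ± 291 against 920.4 ± 165 CPM, adjusted p = 0.00078) was higher in LECs and the adhesion molecule *Esam* (161 ± 29.4 against 1849 ± 118 CPM, adjusted p = 5.5e-06) in BECs. Laminin chains split in the same way, *Lama4* being higher in LECs (514 ± 84.2 against 174 ± 24.8 CPM, adjusted p = 6.8e-05) and *Lama5* in BECs (74.5 ± 17.9 against 454 ± 66.6 CPM, adjusted p = 2.5e-05). Over the basement membrane list, 5 of 14 genes were higher in LECs and 7 in BECs. Among its linkers, *Nid2* was higher in LECs (log2 fold change 1.55) and *Hspg2*, or perlecan, in BECs (-1.46). Of 16 genes of interstitial matrix, its proteinases and their inhibitors, 6 were higher in LECs and 4 in BECs. The matrix genes higher in LECs included *Emilin1*, a component of lymphatic anchoring filaments (log2 fold change 2.49), *Fn1* (2.13) and *Tgfbi* (2.23), and the proteinase inhibitor gene *Timp3* had the same direction (1.31). Of 12 integrin genes, 4 were higher in LECs and 5 in BECs. *Itga9*, the integrin chain of lymphatic valves, was higher in LECs (2.67) and *Itga1*, a collagen-binding chain, in BECs (-2.001).

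Coagulation genes other than *Vwf* leaned to LECs, 8 of 12 being higher there (4 of them in every alternative) and 1, *Vwf*, in BECs. They included *Thbd*, the thrombin cofactor thrombomodulin (694 ± 75.3 against 388 ± 55.4 CPM, adjusted p = 0.0035), and the fibrinolysis genes *Plat* (168 ± 55.4 against 74.4 ± 23.01 CPM, adjusted p = 0.0031) and *Plaur* (164 ± 43.5 against 52.1 ± 13.3 CPM, adjusted p = 0.00031). Of 15 vasoactive genes, 8 were higher in BECs and 3 in LECs. Those higher in BECs included *Edn1*, or endothelin 1 (log2 fold change -4.97), *Ace* (-4.75), *Nos3* (-0.94) and *Ptgs1* (-4.78), and *Adm*, or adrenomedullin, was among those higher in LECs (1.91). Of 9 scavenger and hyaluronan receptor genes, 6 were higher in LECs and 2 in BECs. *Mrc1* (log2 fold change 5.53), *Stab2* (6.16) and *Colec12* (2.80) were higher in LECs, and *Scarb1*, the HDL receptor (47.6 ± 13.7 against 2086 ± 224 CPM), and *Cd36* in BECs. Of 8 genes of caveolae and fenestrae, 5 were higher in BECs and 1 in LECs (3 of the 6 without the mouse as a block), among them the water channel gene *Aqp1* (497 ± 38.2 against 2438 ± 235 CPM, adjusted p = 1.6e-05). Of 8 sphingosine 1-phosphate genes, *Sphk1*, which makes the lipid (45.96 ± 19.3 against 7.45 ± 6.24 CPM, adjusted p = 0.0072), and *Plpp1* (675 ± 184 against 427 ± 47.4 CPM, adjusted p = 0.0034) were higher in LECs, *Plpp3* was higher in BECs (152 ± 37.1 against 714 ± 120.0 CPM, adjusted p = 1.6e-05), and the receptor gene *S1pr1* was not called (adjusted p = 0.67).

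The median log2 fold change of 17 glycolysis genes was -0.14. Of these, 8 were higher in BECs (4 at least 2-fold, 5 in every alternative that tested them) and 1 in LECs. *Pkm* (637 ± 118 against 1283 ± 162 CPM, log2 fold change -1.02 ± 0.10, adjusted p = 0.00036), *Ldha* (649 ± 117 against 1091 ± 85.7 CPM, adjusted p = 0.00035) and *Pfkl* (log2 fold change -1.28) were in the first group, and *Aldoa* (1109 ± 75.6 against 1102 ± 133 CPM, adjusted p = 0.92) and *Pgk1* (adjusted p = 0.89) were not called. Of 11 sterol genes, 4 were higher in LECs and 1 in BECs, of which 3 remained called without mutant 3, 2 without mutant 4 and 3 without mutant 5. Of 11 immediate-early genes of the AP-1 and feedback groups, which respond within minutes to tissue handling as well as to stimuli in the tissue, 7 were higher in BECs and 1 in LECs, with *Egr1* at 41.9 ± 11.7 against 181 ± 39.6 CPM (log2 fold change -2.12 ± 0.09, adjusted p = 2e-05) and *Zfp36* at a log2 fold change of -2.53. Of 4 heat shock genes in the same list, 2 were higher in LECs and none in BECs. The part of these genes in other differences was not tested.

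Cycling cells were more frequent in LECs than in BECs of each mutant mouse. A cell counted as cycling when, after thinning to 50000 reads, it held reads of at least 3 of 7 genes of late cell division (*Mki67*, *Top2a*, *Ccnb1*, *Cdk1*, *Birc5*, *Cenpf* and *Cdc20*). The share in LECs was 26.6, 14.4, 9.64, 8.79 and 19.1% in mutants 1–5, and that in BECs 15.3, 10.9, 5.15, 1.72 and 6.93%. The mean was 15.7 ± 7.36% in LECs and 7.995 ± 5.25% in BECs (SD, n = 5), a difference of 7.72 percentage points. An exact sign-flip test over the 5 mice gave a two-sided p of 0.0625, the smallest that 5 pairs allow, so this design cannot pass 0.05. For single mice the 95% Wilson intervals, which cover counting error only, overlapped in mutants 1, 2 and 3 and were apart in mutant 5 (15.4–23.4 against 4.58–10.4%) and in mutant 4 (5.48–13.8 against 0.59–4.95%). Without thinning the shares were 78.8 and 48.6% in mutant 1 and 19.2 and 13.8% in mutant 4 (LECs and BECs), at the unequal read depths given above. In the control mice 2 of 183 and 3 of 175 LECs met the rule, and 0 of 159 and 0 of 157 BECs, which allows shares of up to 1.89 and 1.91% at 3 counts of the total. The 95% Wilson upper bounds drawn in the plot of shares were 2.36 and 2.39%.

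**Figure D3:**
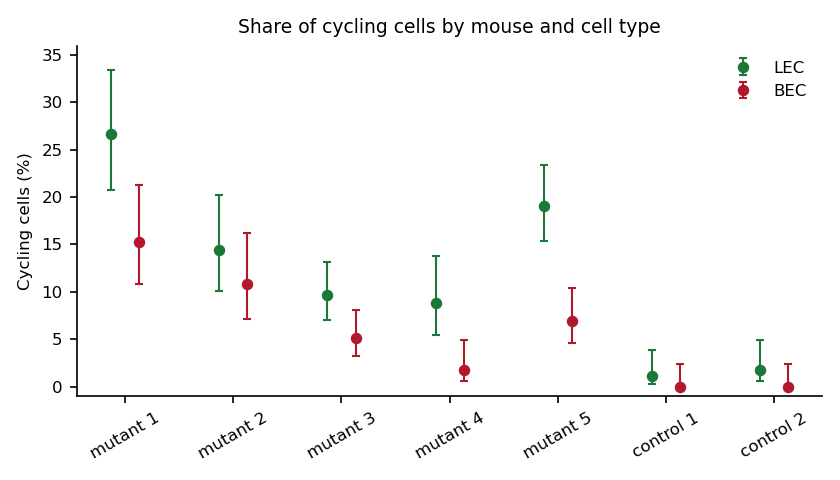
Percent of cells that met the cycling rule (y axis) among LECs (green) and BECs (red) of each mouse, with 95% Wilson intervals of counting error. The LEC share was above the BEC share in all 5 mutant mice, and the 2 control mice reached at most 1.71%.

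The summed counts showed the same direction with less certainty. Of 12 mitosis genes, 7 were higher in LECs and none in BECs, with a median log2 fold change of 1.22, and all 7 genes of the cycling rule are in this list, of which *Mki67*, *Birc5*, *Cenpf* and *Cdc20* were called. *Ccnb2*, the gene of cyclin B2 (chromosome 9, 70407692–70421547), stood at 128, 113, 77.7, 87.5 and 103 CPM in the LECs of mutants 1–5. The BECs of these mice held 63.2, 70.2, 31.03, 10.7 and 30.3 CPM (log2 fold change 1.54 ± 0.33, adjusted p = 0.014). *Mki67*, which encodes the proliferation antigen Ki67 (chromosome 7, 135689784–135716361), stood at 139.9, 128, 63.5, 83.3 and 78.3 CPM in the LECs of mutants 1–5. BEC levels were 69.05, 89.8, 46.2, 11.7 and 33.6 CPM, and its groups overlapped, since the LECs of mutant 3 were below the BECs of mutants 1 and 2 (log2 fold change 1.18 ± 0.34, adjusted p = 0.044). The calls depended on single libraries and on the gate. Of the 7 genes, 2 were still called with the gate at 600 CPM, 2 without mutant 5, 3 without mutant 1, 4 without mutant 3, 4 without the mouse as a block and 2 with the cycling cells left out. Of 10 genes of DNA replication, 2 were higher in LECs and none in BECs (*Tyms*, log2 fold change 0.62, and *Mcm2*, 0.62), and the call of *Mcm2* was lost without each of mutants 1, 3, 4 and 5.

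Promoters of mitosis genes are shown because 7 of the 12 were higher in LECs and none in BECs, and such genes are known to share 2 short elements. RefSeq gives a promoter window, 250 bases before to 50 after the start site, for 11 of the 12 genes. The cell cycle homology element TTTGAA, searched on both strands, was present in 8 of the 11, against 20.2% of 27025 genes with a promoter, and the CCAAT box in 10 of 11 against 41.1%. Of the 7 mitosis genes higher in LECs, 5 held TTTGAA and 6 held CCAAT, and *Birc5* held neither, so TTTGAA was about as frequent in them as in the list. In the replication list 1 of 9 windows held TTTGAA and 8 of 9 held CCAAT. The windows shown belong to genes called higher in LECs and hold both elements. A match describes letters and is not a tested binding site. In the windows below (GRCm38.p6, 5′ to 3′, all on the minus strand) capitals mark TTTGAA and CCAAT or their reverse complements. They lie at chr9:70421505-70421804 for *Ccnb2*, at chr4:118437294-118437593 for *Cdc20* and at chr1:189688037-189688336 for *Cenpf*.
Ccnb2: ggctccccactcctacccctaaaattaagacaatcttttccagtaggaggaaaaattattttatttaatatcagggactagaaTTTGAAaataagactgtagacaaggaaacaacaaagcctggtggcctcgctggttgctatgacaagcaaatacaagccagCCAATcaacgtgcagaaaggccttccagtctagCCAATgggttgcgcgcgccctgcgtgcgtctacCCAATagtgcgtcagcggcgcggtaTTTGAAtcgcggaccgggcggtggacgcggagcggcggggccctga
Cdc20: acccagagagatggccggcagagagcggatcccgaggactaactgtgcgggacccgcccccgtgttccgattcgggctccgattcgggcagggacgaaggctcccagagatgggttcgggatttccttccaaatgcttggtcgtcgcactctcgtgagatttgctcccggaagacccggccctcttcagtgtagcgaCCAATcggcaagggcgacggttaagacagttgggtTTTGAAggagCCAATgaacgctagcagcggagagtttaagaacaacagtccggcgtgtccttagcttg
Cenpf: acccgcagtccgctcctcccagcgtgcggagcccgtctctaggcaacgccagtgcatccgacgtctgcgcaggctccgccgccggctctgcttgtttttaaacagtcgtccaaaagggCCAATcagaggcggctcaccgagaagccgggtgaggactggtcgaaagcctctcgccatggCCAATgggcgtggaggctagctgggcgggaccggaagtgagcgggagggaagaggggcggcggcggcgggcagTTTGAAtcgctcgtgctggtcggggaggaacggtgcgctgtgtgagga
The *Ccnb2* window held 2 TTTGAA and 3 CCAAT elements and the other windows 1 and 2 each. The 3 genes had log2 fold changes of 1.54, 1.03 and 1.35 between LECs and BECs.

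Whether the LEC-BEC difference itself differed from that in control mice was asked in a fit over 5 mutant and 2 control mice, with the mouse as a block. Of 21927 genes, 41 (0.187%) were called, 7 with a difference that was more positive in mutants and 34 with one more negative. These calls rested on few mice. Leaving out control 2 left 0 calls with edgeR, although 2854 genes had an unadjusted p under 0.05, leaving out control 1 left 7, and leaving out mutants 1–5 in turn left 9, 20, 18, 10 and 20. DESeq2 on the same sums called 1240. The plates of the controls and of mutant 5 carried higher plate numbers than those of mutants 1–4, so that for mutants 1–4 genotype and plate series cannot be told apart. Mutant 5 shared the higher plate numbers with both controls but is a single mutant mouse. A fit of mutant 5 with both controls therefore cannot settle whether the calls hold there. Fibroblast markers summed to 243–455 CPM in LECs and 735–972 CPM in BECs of the control mice, above all mutant sums. Mural markers were also above all mutant sums of the same cell type there (119–151 CPM in LECs and 330–716 CPM in BECs), and Schwann cell markers reached 118 CPM in LECs and 149 CPM in BECs of control 1. The part of these markers was not tested. With all cells that held other markers left out, 100 genes were called.

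Of the 41 genes, 8 belong to the lists above. *Nr2f2* encodes COUP-TFII, a factor of venous and early lymphatic identity. *Nr2f2* was at 186, 199, 187, 182 and 195 CPM in LECs and 138, 108, 113, 97.9 and 102 CPM in BECs of mutants 1–5. LECs of controls 1 and 2 held 305 and 202 CPM and their BECs 42.3 and 22.8 CPM. BECs of every mutant were above BECs of both controls, and the excess in LECs was smaller in mutants (difference -2.22 ± 0.19, adjusted p = 0.012). *Col18a1*, the gene of the collagen that yields endostatin, was at 1013, 1086, 909, 939 and 798 CPM in LECs and 734, 835, 617, 590.5 and 802 CPM in BECs of mutants 1–5. In controls 1 and 2 it was at 995 and 891 CPM in LECs and 174 and 189 CPM in BECs. BECs of mutants were again above those of controls, and mutant 5 had no excess in LECs (difference -1.96 ± 0.19, adjusted p = 0.014). *Mmp2*, a gelatinase, was at 481, 398, 599, 502 and 640.3 CPM in LECs and 1711, 1501, 1606, 1452 and 1357 CPM in BECs of mutants 1–5. LECs of controls 1 and 2 held 224 and 219.6 CPM and their BECs 211 and 175 CPM. The gene was higher in BECs than in LECs of every mutant and slightly lower in BECs than in LECs of both controls (difference -1.77 ± 0.22, adjusted p = 0.043).

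*Plvap* was at 821, 515, 592, 514 and 461 CPM in LECs and 4101, 3210.4, 3524, 2722 and 2754 CPM in BECs of mutants 1–5. In controls 1 and 2 it was at 765 and 650.5 CPM in LECs and 2061 and 1967 CPM in BECs (difference -0.99 ± 0.11, adjusted p = 0.033), with an excess in BECs in both genotypes that was larger in mutants. *Lrg1*, a glycoprotein of TGFβ signaling (difference -1.38 ± 0.18, adjusted p = 0.045), and *Fbn1*, or fibrillin 1 (difference -1.17 ± 0.16, adjusted p = 0.0496), had the same sign. *Thbd* had the opposite one. It was at 666, 671, 777, 633 and 823 CPM in LECs and 389.6, 418, 351, 466 and 322 CPM in BECs of mutants 1–5. LECs of controls 1 and 2 held 233 and 153 CPM and their BECs 440.3 and 482 CPM. LECs of every mutant and BECs of both controls had the higher level (difference 2.17 ± 0.29, adjusted p = 0.047). *Plk1*, the mitotic kinase, was at 61.8, 42.3, 27.2, 47.7 and 52.9 CPM in LECs and 47.4, 37.96, 24.3, 14.4 and 18.2 CPM in BECs of mutants 1–5. In controls 1 and 2 it was at 5.49 and 5.15 CPM in LECs and 0.0628 and 0.0922 CPM in BECs. Control BECs held so few reads that the fitted difference (-5.29 ± 0.69, adjusted p = 0.045) depends on them.

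Of the other called genes, *Klk8*, a secreted serine protease, was at 58.04, 87.7, 123, 112 and 329.6 CPM in LECs and 20.7, 17.9, 25.1, 22.1 and 45.3 CPM in BECs of mutants 1–5. LECs of controls 1 and 2 held 0.939 and 0.9203 CPM and their BECs 36.5 and 23.8 CPM (difference 7.24 ± 0.42, adjusted p = 0.0034). *Ggt5* was at 59.8, 47.1, 75.4, 72.1 and 80.9 CPM in LECs and 0.993, 0.191, 2.93, 1.099 and 0.866 CPM in BECs of mutants 1–5. In controls 1 and 2 it was at 2.24 and 3.04 CPM in LECs and 19.2 and 6.89 CPM in BECs (difference 8.26 ± 0.97, adjusted p = 0.033). For both, LECs of every mutant were far above LECs of both controls. The transcription factor gene *Sox13*, the metalloproteinase gene *Adam15* and the growth factor receptor gene *Fgfr3* had positive differences of 2.57, 2.25 and 2.09, and the antisense transcript *Gm16897* one of 2.76. The antisense transcript *A330009N23Rik* had a difference of -2.96. Whether counting used strand is not given in the sources used here, so antisense reads and those of an overlapping gene may not be told apart. *Nt5dc2*, *Dok3*, *Zfp568*, *Chst1*, *Esr1* and *Krt23* had differences from -2.92 to -10.11. The last 2, the gene of estrogen receptor α and a keratin gene, held at most 0.17 CPM in BECs of the control mice, so the fitted size is not well determined and is no bound.

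**Figure D4:**
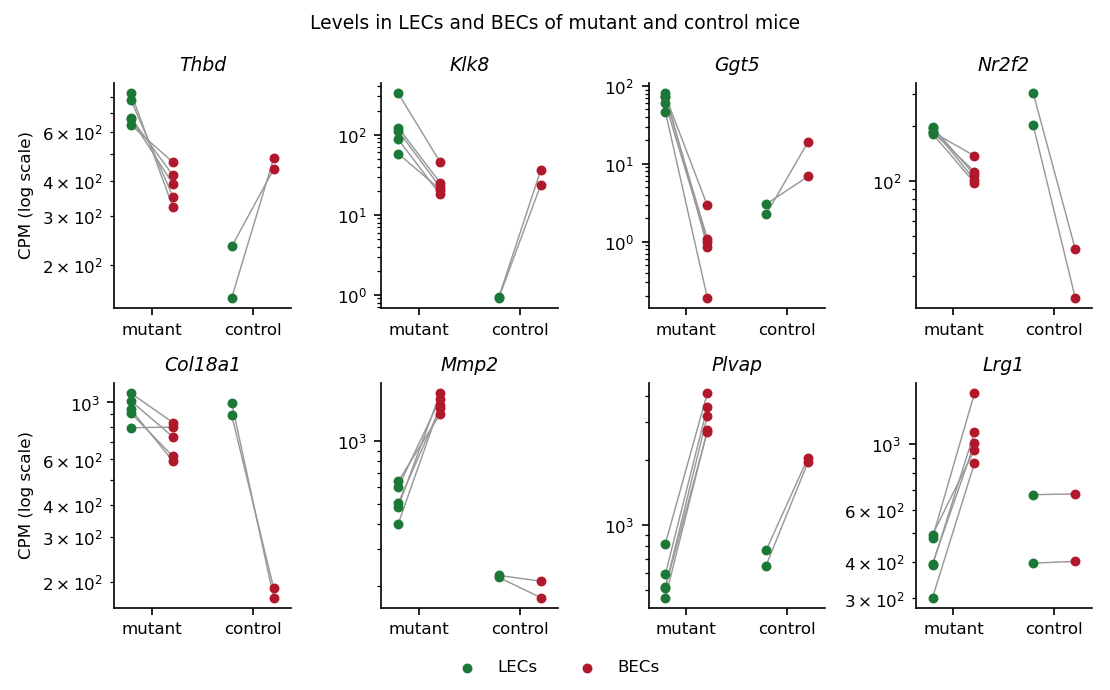
CPM (log scale) of 8 genes in LEC sums (green) and BEC sums (red) of 5 mutant mice (left of each panel) and 2 control mice (right), with a line joining the sums of a mouse. *Thbd*, *Klk8* and *Ggt5* were higher in LECs of mutants but in BECs of controls, *Nr2f2* and *Col18a1* were higher in BECs of every mutant than in BECs of both controls, and *Mmp2* and *Lrg1* had a BEC excess in mutants but nearly equal levels in both cell types of controls.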

How the data were processed

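Full-length cDNA of single sorted cells in 384-well plates was sequenced (Smart-Seq2) without molecular identifiers. The authors deposited raw read counts per gene and well. They aligned with TopHat2 2.1.1 to GRCm38, removed duplicate reads with SAMtools 0.1.18 and counted with featureCounts. Strand was not given in the sources used here. Gene lengths and identifiers were deposited beside the counts. Names and coordinates came from the GENCODE annotation of GRCm38.

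Wells were filtered and gated as described, with no doublet caller, and counts were added up per mouse and cell type. Sums were tested with edgeR 4.0.16 in R 4.3.3 (filterByExpr, TMM, quasi-likelihood F test, mouse as a block) with Benjamini-Hochberg adjustment over all genes tested. The pairing comes from the design, since LECs and BECs came from the same mouse and plate. Printed CPM are TMM-scaled, values after ± are SDs over 5 mice for levels and SEs for fold changes, and CPM of gate and marker sums are unscaled. TMM scaling ran over the 10 mutant sums in the main comparison and over all 14 sums in the comparison with controls. Levels printed for the same mutant sum therefore differ slightly between these comparisons. The fit was checked on simulated counts. In the fits with the mouse as a block, p-values measure how the LEC-BEC difference varied between these mice, not the spread of levels that the SDs give. Intervals and limits cover counting error only, and reads are not independent molecules.

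Alternatives were DESeq2 1.42.0, its size factors, no filter on low counts, no block, each mouse left out, cells thinned to 50000 reads, equal cell numbers, 1 plate per mouse, cycling cells or cells with other markers left out, gates at 10-fold or 600 CPM, and, chosen after seeing the data, the usual side of the plate and subsets by plate series. Named genes were members of the lists, the 12 largest called differences per direction by the rule given (gate, predicted and pseudogenes left out), and up to 8 per direction for the comparison with controls at a mean log2 CPM of at least 3. Some list members are not reported here. Members and lists were chosen with earlier results of these data known.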

Additional observations from a re-analysis of the deposited data

Results flagged for a closer look

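The LEC-BEC log2 difference of 1 mutant mouse stood apart from the other 4 (Dixon's test on CPM plus 0.5) for 6 named genes. They were among 175 items tested, the named genes and the cycling shares of LECs and of BECs, where chance flags about 1 in 20. *C1qtnf9* differed by -5.454 in mutant 1 and by -7.774 to -7.121 in the others. *Rgs5* differed by -5.414 in mutant 3 and by -3.748 to -3.276 in the others, *Ptgs1* by -6.041 in mutant 2 and by -4.609 to -4.15 in the others, and *Tap1* by -2.316 in mutant 1 and by -1.838 to -1.753 in the others. *Ldha* differed by -0.5022 in mutant 5 and by -0.8914 to -0.7875 in the others. *Hoxd8* was at 0.435 in mutant 1 and -0.2776 to -0.1006 in the others.

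The LEC-BEC difference differed between mutant and control mice by an interaction test in edgeR for 21 named genes, with few mice behind each. On the log2 scale, mutants minus controls, it was 8.259 for *Ggt5*, 7.241 for *Klk8*, 2.758 for *Gm16897*, 2.568 for *Sox13*, 2.247 for *Adam15*, 2.165 for *Thbd* and 2.086 for *Fgfr3*. It was -0.9894 for *Plvap*, -1.174 for *Fbn1*, -1.377 for *Lrg1*, -1.766 for *Mmp2*, -1.962 for *Col18a1* and -2.221 for *Nr2f2*. It was -2.924 for *Nt5dc2*, -2.961 for *A330009N23Rik*, -3.542 for *Dok3*, -3.696 for *Zfp568*, -3.843 for *Chst1*, -5.293 for *Plk1*, -7.048 for *Esr1* and -10.11 for *Krt23*.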

How the results depend on the processing

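Counts of genes higher in LECs and in BECs stayed within 1.5 times the values given under every alternative run, from 1519 to 3144 in LECs and from 1660 to 3004 in BECs, the highest with DESeq2 and the lowest without mutant 3. Without the mouse as a replicate block 1921 and 2040 genes were called. Of 145 named genes called, 133 were called in the same direction in every alternative; *Birc5*, *Ccnb2*, *Cdc20*, *Cenpf*, *Col18a1*, *Dcn*, *Fbn1*, *Kdr*, *Mcm2*, *Mki67*, *Myh11* and *Ramp2* were not. Of 28 named genes not called, 10 were called under at least 1 alternative (*Angpt2*, *Ccnb1*, *Cdk1*, *Foxo1*, *Hhex*, *Notch1*, *Plk1*, *Sox18*, *Tsc2* and *Vegfd*), among them *Angpt2* at the 10-fold gate (log2 fold change 0.78, adjusted p = 0.0094 in edgeR). With cycling cells left out, by construction of that setting, *Cdc20* and *Mki67* turned to log2 fold changes of -0.13 and -0.19. The share of cycling cells in LECs minus that in BECs ran from 6.35 points with at least 4 genes to 16.3 without thinning, and from 6.61 to 8.76 with 1 mouse left out.

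The interaction with controls gave 41 calls, but 1240 with DESeq2, 100 without cells that held other markers, 25 without cycling cells, 20 with mutants 1–4 and 0 with mutant 5 (1119 genes at an unadjusted p under 0.05), and 0 to 20 with 1 mouse left out (2854 genes at an unadjusted p under 0.05 in edgeR without control 2, which left 0). None of the 21 named genes was called in every alternative and none reversed. Without the block 50 genes were called. The cause was not tested. Depth limits the genes whose control BECs held few reads.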
